A study of Rattus norvegicus with 6 samples.

Results

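Adamts16, a gene for a secreted metalloprotease on rat chromosome 1, sits among genes that serve quite unrelated functions. The genes described here are 10 of its neighbours, not all of them, and were listed with earlier results of these data known. They were read from every probe set whose only symbol in the array annotation was one of theirs. Of the 10, 9 were found, with 14 probe sets, out of 14217 named genes on the array. Srd5a1, which encodes a steroid 5-alpha-reductase, had no probe set with it as the only symbol and was not analysed here. For each gene the probe set with the highest mean over the 6 arrays was taken as the main one.

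Kidney RNA came from adult male rats of 2 strains, with 3 rats and 3 arrays in each. The congenic strain, S.LEW(D1MCO4x1x3Bx1), carries a stretch of chromosome 1 from the Lewis rat on the genome of the Dahl salt-sensitive rat. It was set against that inbred rat itself (SS/Jr, here S), which becomes hypertensive on salt and is also the source of the rest of the congenic genome. The labels give no diet, no age beyond adult, and no ends of the Lewis segment, so which of the 10 genes lie inside it was not analysed here. By its title, the series belongs to the positional work on Adamts16 variants in inherited hypertension.

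In a congenic strain, genes inside the donor segment carry donor alleles and genes outside it carry recipient alleles, so a neighbour whose transcript level differs between the strains is one place where a donor allele can be visible in expression. Neighbouring genes can also share a start region: when they lie head to head on opposite strands, 1 short stretch of DNA lies upstream of both. The products of these neighbours work in RNA processing and modification (Tent4a, Nsun2, Fastkd3), transcription (Ice1, Med10), methionine metabolism (Mtrr), steroid metabolism (Srd5a1) and membranes (Clptm1l, Pdcd6).

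In the gene table of assembly GRCr8, 3 of the 10 genes precede Adamts16 and 7 follow it. Ccdc127 is the farthest before it, with 24 protein-coding genes between, Pdcd6 has 22 between and Clptm1l 7. After Adamts16 comes Ice1 with 0 between, then Med10 with 1, Nsun2 with 3, Srd5a1 with 4, Tent4a with 5, Fastkd3 with 9 and Mtrr with 10. The order alone is used, because the array's own build is not given in the sources used here.

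Signals are the deposited probe set intensities, which the authors had scaled to a common level, and a difference is congenic minus S on the log2 scale. All 9 main probe sets lay above the median mean signal of all probe sets, a signal of 165 as a geometric mean, and so were among the 15521 probe sets tested together. Of the 14 probe sets, 11 passed this filter and 3 did not. None of the 9 genes passed an adjusted p of 0.05 in limma, where 0.0% of the probe sets tested passed. At unadjusted p under 0.05 there were 3 genes, Clptm1l and Tent4a with higher and Ccdc127 with lower congenic signals, where 10.3% of the probe sets tested reached that level in either direction (4.72% higher and 5.61% lower). In the same 3 genes the strains did not overlap, as in 16% of the probe sets tested (7.98% with the congenic rats on top and 7.99% with the S rats on top). With 9 genes chosen in knowledge of earlier results, these counts are a description and were given no test of their own.

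Upstream sequence is shown for the 3 genes whose strains did not overlap, because it is the DNA next to the transcripts that the comparison turns on. The stretches come from RefSeq's GRCr8 assembly of the BN rat, which is neither strain used here, and are cut to the bases outside every annotated gene. Capitals mark matches, on either strand, to GGGCGG (the GC box) or CCAAT (the CCAAT box).
Clptm1l, minus strand, chr1:31512149-31512327: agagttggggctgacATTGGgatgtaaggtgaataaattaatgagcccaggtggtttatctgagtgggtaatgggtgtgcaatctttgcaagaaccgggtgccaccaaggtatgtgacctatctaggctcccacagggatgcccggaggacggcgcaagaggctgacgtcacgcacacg
Tent4a, plus strand, chr1:35594130-35594379: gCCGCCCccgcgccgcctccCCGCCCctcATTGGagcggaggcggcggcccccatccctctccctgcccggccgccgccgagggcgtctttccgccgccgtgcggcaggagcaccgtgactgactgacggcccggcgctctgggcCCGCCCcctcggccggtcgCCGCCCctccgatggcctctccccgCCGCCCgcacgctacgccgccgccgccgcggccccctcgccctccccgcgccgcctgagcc
Ccdc127, minus strand, chr1:30764474-30764552: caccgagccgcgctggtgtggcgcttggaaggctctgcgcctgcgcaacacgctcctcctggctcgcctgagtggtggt
The Clptm1l stretch of 179 bases ends 71 bases before the start used in the promoter table and is 53.6% G or C, against 82.8% in the 250 bases before Tent4a. Tent4a's stretch held 5 GC boxes and 1 CCAAT box, which occur at least once in 30.5% and 34.0% of all 33469 promoters over the same window. Clptm1l's held 1 CCAAT box, as do 25.8% of promoters over its window. The 79 bases between Ccdc127 and its head-to-head neighbour Sdha, 69.6% G or C, held neither, where 18.7% and 13.6% of promoters hold one over the same length. The letters TATAAA (the TATA box) were in none of the 3 stretches on either strand. They occur in 12.9% of promoters over the window used for Tent4a, in 8.97% over that for Clptm1l and in 4.76% over that for Ccdc127. These matches describe the letters and are not evidence of binding.

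Clptm1l is a membrane protein gene whose human product moves a lipid precursor of GPI anchors across the endoplasmic reticulum membrane. In the main setting it had the smallest unadjusted p of the 9 genes. Its signal was 3662, 4511 and 3930 in the congenic kidneys, against 3617, 3237 and 2869 in the S kidneys. The strains did not overlap, but the lowest congenic rat and the highest S rat lay close together. The means were 4035 ± 434 in congenic and 3241 ± 374 in S kidneys (SD, n = 3 each). The difference came to 0.32 ± 0.10 (standard error) on the log2 scale, with 95% bounds of 0.10 and 0.53, which is a fold of 1.25 with an interval of 1.07 to 1.45. In limma its unadjusted p was 0.007 and its adjusted p 0.294. Over 16 alternative settings its unadjusted p ran from 0.00179 to 0.0497 and its adjusted p from 0.157 to 0.67. Without a variance trend its unadjusted p was 0.0419, above those of Ccdc127 (0.00334) and Tent4a (0.0298). Without the filter it was 0.0358, again above Ccdc127 (0.0182) and Tent4a (0.0276). The 2-sided exact permutation test gave p = 0.1, the smallest that 3 against 3 allow. After quantile normalisation or cyclic loess the difference was 0.28 and the strains overlapped. Clptm1l has a single probe set, so agreement between probe sets could not be examined.

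Tent4a encodes a poly(A) polymerase outside the canonical family, which extends and remodels the tails of messenger RNAs. Its main probe set read 576, 560 and 712 in the congenic kidneys, against 512, 462 and 490 in the S kidneys. All congenic rats lay above all S rats, and congenic replicate 3 stood above the other two. The means were 616 ± 83.7 in congenic and 488 ± 25.1 in S kidneys (SD, n = 3 each). The difference came to 0.33 ± 0.14 (standard error) on the log2 scale, with 95% bounds of 0.03 and 0.62, a fold of 1.26. Its unadjusted p was 0.0313 and its adjusted p 0.436 in limma, and the adjusted p ran from 0.275 to 1.0 over the alternatives. Without congenic replicate 3 the difference was 0.22, with an unadjusted p of 0.159, and the unadjusted p was 0.087 without S replicate 2 and 0.0569 without S replicate 3.

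The 2 other Tent4a probe sets gave no second reading of that difference. Probe set 1395417_at read 40.7, 43.4 and 49.7 in congenic kidneys, against 18.4, 55 and 81 in S kidneys. Probe set 1394663_at read 35.2, 13.1 and 24.5 in congenic kidneys, against 30.6, 26.6 and 29.8 in S kidneys. Both lay far under the signal filter, their strains overlapped, and their log2 differences were 0.03 (95% interval -1.44 to 1.5) and -0.37 (-1.34 to 0.60). When all probe sets of a gene were averaged, the Tent4a difference was -0.0026. The higher congenic signal of Tent4a therefore came from 1 probe set alone, and the wide intervals of the other two include the value of the main one.

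Ccdc127, which encodes a coiled-coil protein, had the lowest difference of the 9 genes. Its main probe set, 1385101_a_at, read 194, 159 and 157 in the congenic kidneys, against 248, 236 and 228 in the S kidneys. All congenic rats lay below all S rats, and the S rats differed little among themselves. The means were 170 ± 20.5 in congenic and 237 ± 10.2 in S kidneys (SD, n = 3 each). The difference came to -0.49 ± 0.21 (standard error) on the log2 scale, with 95% bounds of -0.93 and -0.05, a fold of 0.713. Its unadjusted p was 0.0328 and its adjusted p 0.441 in limma, and the adjusted p ran from 0.394 to 0.685 over the alternatives. The unadjusted p was above 0.05 after median centring (0.0697), quantile normalisation (0.0573) and cyclic loess (0.0645), with differences of -0.42, -0.43 and -0.42. With the mean over probe sets it was 0.102 in limma, while the difference was -0.64 and the strains did not overlap. That mean takes in a probe set under the signal filter. The unadjusted p was also above 0.05 without S replicate 1 (0.0807), S replicate 2 (0.0689) or S replicate 3 (0.0512). The same held without congenic replicate 2 (0.078) or congenic replicate 3 (0.0744), so in 9 of 16 alternatives in all.

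All 3 Ccdc127 probe sets had a negative difference, but the main one alone separated the strains. Probe set 1385102_at, which the annotation ties to the same expressed sequence tag as the main one, read 180, 170 and 143 in congenic kidneys, against 175, 158 and 248 in S kidneys. Here S replicate 3 was the high one, and the other two S rats lay among the congenic rats. Its log2 difference was -0.21 with a 95% interval of -0.73 to 0.30. Probe set 1385102_at passed the filter, a signal of 165, through the S kidneys, with a mean of 194 against 164 in congenic kidneys. Its negative sign is given as a description only. In the main probe set, congenic replicates 2 and 3 (159 and 157) also lay under that signal. Probe set 1385496_at, from another tag and under the signal filter, read 85.0, 108 and 15.4 in congenic kidneys, against 136, 147 and 87.9 in S kidneys. Its log2 difference of -1.21 had a 95% interval of -3.22 to 0.80 and was largest in congenic replicate 3.

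Whether probe sets of 1 gene differed from each other was tested on their log2 difference within each array, other minus main, over the 5 pairs that the 3 genes give. For Ccdc127 1385102_at this was -0.10, 0.09 and -0.13 in congenic kidneys, against -0.50, -0.58 and 0.12 in S kidneys, so that it shifted by 0.27 (2-sided exact permutation p = 0.4). For 1385496_at the shift was -0.73 (exact p = 0.7). The shifts of the Tent4a probe sets were -0.30 (exact p = 0.7) and -0.70 (exact p = 0.4), and that of the second Mtrr probe set was -0.01 (exact p = 1.0). Adjusted over the 5 pairs, these p-values were 0.875 or above. A difference between probe sets of a gene was therefore not detectable with 3 rats a strain, which also does not show that they read alike.

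**Figure D1:**
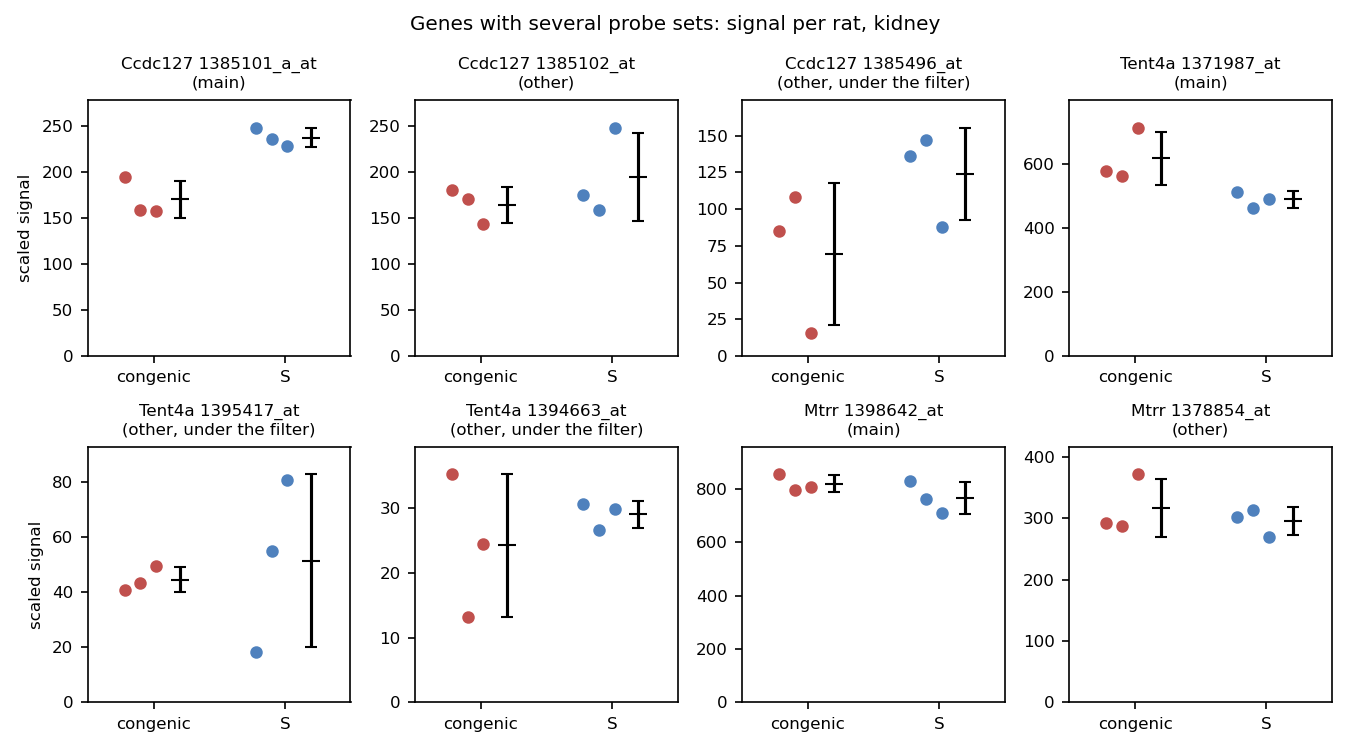
Scaled signal per rat for every probe set of Ccdc127, Tent4a and Mtrr, congenic left (red) and S right (blue), with mean and SD over 3 rats as black bars and axes from 0. The main probe sets of Tent4a and Ccdc127 separate the strains, while each of their other probe sets overlaps.

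Mtrr, the gene of the reductase that returns methionine synthase to its active form, was the gene in which 2 probe sets past the filter gave nearly the same difference. The main one, 1398642_at, read 854, 795 and 807 in congenic kidneys, against 829, 760 and 707 in S kidneys. The second, 1378854_at, read 293, 287 and 372 in congenic kidneys, against 302, 314 and 270 in S kidneys. Here congenic replicate 3 was the high one, and the other congenic rats lay among the S rats. Without that rat the shift of the second probe set against the main one was -0.13. With all 6 arrays the log2 differences of the main and second probe sets were 0.10 (95% interval -0.14 to 0.34) and 0.09 (-0.28 to 0.47). Both had overlapping strains. The intervals allow folds from 0.906 to 1.27 for the main probe set, and neither passed (adjusted p = 0.792 and 0.885 in limma).

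The other 5 genes, each with 1 probe set, had strains that overlapped. Nsun2, an RNA methyltransferase gene that places 5-methylcytosine on transfer RNAs, read 1108, 1189 and 1002 in congenic kidneys, against 805, 1083 and 1101 in S kidneys. Without S replicate 1, the low value, its log2 difference of 0.15 was 0.007. Med10, which encodes a subunit of the Mediator complex that links activators to RNA polymerase, read 626, 664 and 606 in congenic kidneys, against 647, 595 and 529 in S kidneys. Its log2 difference was 0.10 with a 95% interval of -0.17 to 0.37.

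Fastkd3, of a family of mitochondrial RNA-binding proteins, read 495, 471 and 529 in congenic kidneys, against 475, 485 and 474 in S kidneys. Its log2 difference was 0.06 with a 95% interval of -0.23 to 0.34. Pdcd6, a calcium-binding protein gene active in vesicle transport, read 3502, 3491 and 3525 in congenic kidneys, against 3501, 3472 and 3158 in S kidneys. Of the 9 genes it had the narrowest interval, -0.11 to 0.22 around a difference of 0.06, so that folds outside 0.924 to 1.17 lay beyond it. Ice1, the direct neighbour of Adamts16 and gene of the scaffold of the little elongation complex, read 399, 330 and 329 in congenic kidneys, against 347, 362 and 369 in S kidneys. Its difference of -0.03 (95% interval -0.37 to 0.31) was 0.04 after median centring and 0.01 after quantile normalisation or cyclic loess. In limma the adjusted p-values of these 5 genes lay between 0.705 and 0.964.

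**Figure D2:**
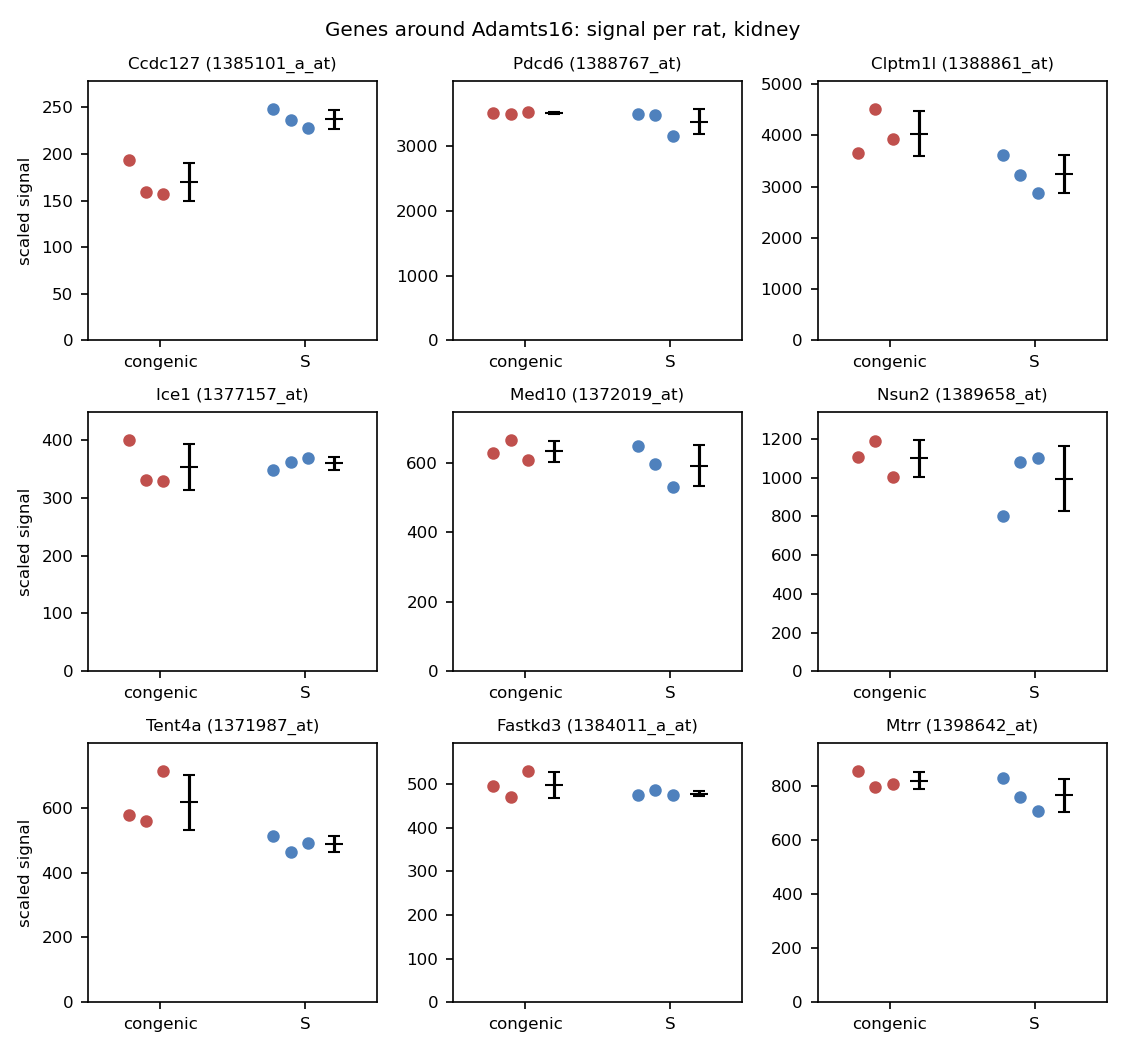
Scaled signal per rat for the main probe set of each of the 9 genes, in gene order, congenic left (red) and S right (blue), with mean and SD over 3 rats as black bars and axes from 0. The strains are apart for Ccdc127, Clptm1l and Tent4a and overlap for the other 6.

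Across the 9 main probe sets 7 differences were positive and 2 negative, where 48.2% of all probe sets tested were positive. Their median was 0.10, against -0.00869 over all probe sets tested, and they ran from -0.49 to 0.33. With median centring 8 of 9 were positive, where 62.6% of all probe sets were. The split of genes at unadjusted p under 0.05 was 2 higher and 1 lower. It was 2 higher and 0 lower with median centring, quantile normalisation or cyclic loess. In these settings 12%, 9.72% and 9.7% of all probe sets tested reached that level in either direction. Ccdc127, the gene that no longer did, kept negative differences of -0.42, -0.43 and -0.42. By position, 2 of the 3 genes before Adamts16 and 5 of the 6 measured genes after it had a positive difference.

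**Figure D3:**
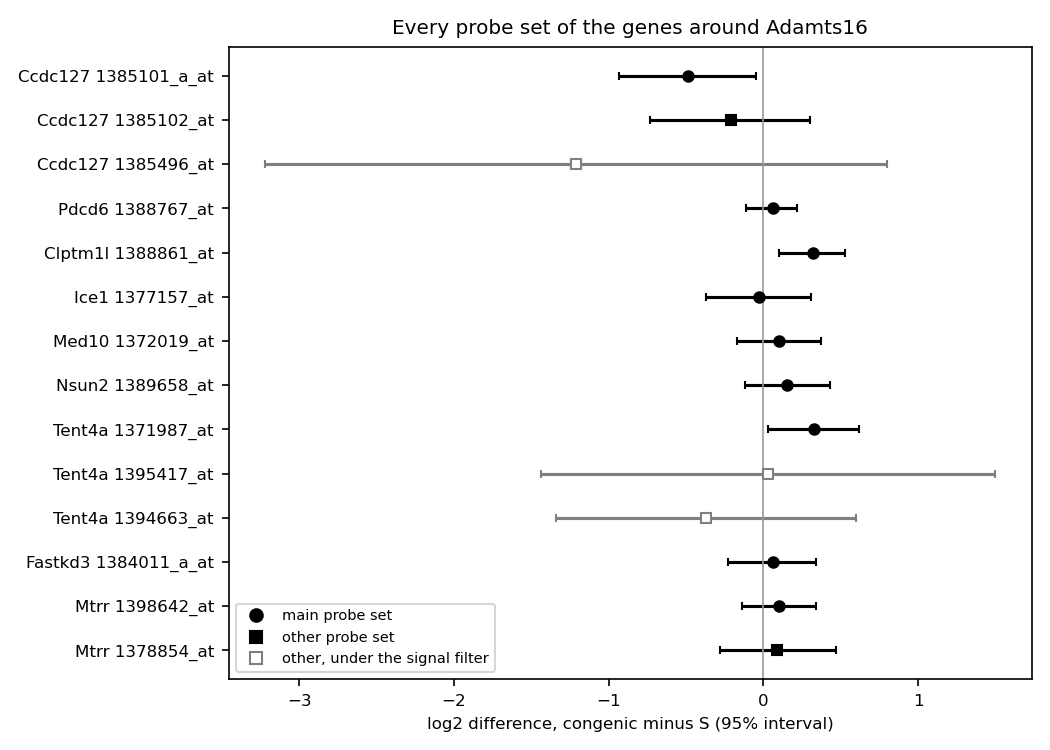
Log2 difference, congenic minus S, with 95% intervals from limma for all 14 probe sets in gene order, main probe sets as circles, others as squares, open grey where the mean signal lay under the filter. The intervals of the main probe sets of Clptm1l, Tent4a and Ccdc127 leave out 0, and the 3 open symbols have the widest intervals.

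The spread between rats differed from gene to gene. Within congenic kidneys the SD of log2 signal went from 0.01 for Pdcd6 to 0.19 for Tent4a, and within S kidneys from 0.02 for Fastkd3 to 0.25 for Nsun2. S replicate 3 had the lowest of the 6 values for 4 of the 9 genes (Clptm1l, Med10, Mtrr and Pdcd6), and no gene had its highest value there. Without that rat the Clptm1l difference was 0.23 (adjusted p = 0.67 in limma), Tent4a had 0.33 and Ccdc127 -0.52. The number of genes at unadjusted p under 0.05 was 1, namely Clptm1l, without S replicate 2, without S replicate 3 or without congenic replicate 3. In these fits 8.65%, 7.37% and 8.18% of all probe sets tested reached that level, so 1 of 9 genes is near the general share.

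**Figure D4:**
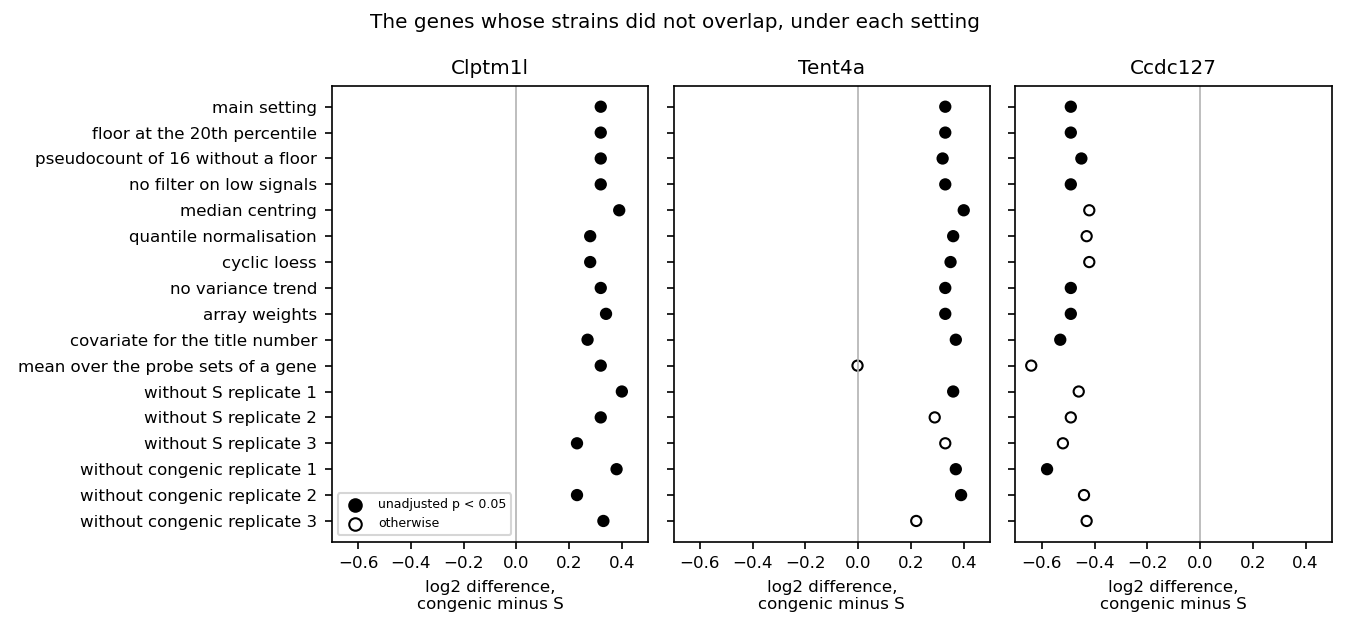
Log2 difference, congenic minus S, of Clptm1l, Tent4a and Ccdc127 under the main setting and 16 alternatives, filled where the unadjusted p in limma was under 0.05. Clptm1l is filled in all 16 alternatives with values of 0.23 to 0.40, Tent4a in 12 and Ccdc127 in 7, and Tent4a lies at 0 when its probe sets are averaged.

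Among these neighbours, 3 pairs of genes lie head to head with starts close together in the gene table: Ccdc127 with Sdha, Nsun2 with Srd5a1, and Fastkd3 with Mtrr. Sdha encodes the flavoprotein subunit of succinate dehydrogenase and read 13741, 14410 and 13813 in congenic kidneys, against 13798, 12689 and 13688 in S kidneys. Its log2 difference was 0.06 (95% interval -0.10 to 0.22), where Ccdc127, with 79 bases between the starts, had -0.49. Within each array, the main Ccdc127 probe set minus Sdha shifted by -0.55 between the strains, with congenic rats all below S rats. Its exact permutation p was 0.1, the smallest that 3 against 3 allow, and 0.2 adjusted over the 2 measured pairs. Because Sdha differed little, this shift largely repeats the separation of that Ccdc127 probe set and is not a second result. Fastkd3 and Mtrr, with 0 bases between their gene spans, had 0.06 and 0.10, and their within-array difference shifted by -0.04 (exact permutation p = 0.8).

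Adamts16 itself had 1 probe set, under the filter, which read 43.5, 121 and 226 in congenic kidneys, against 147, 92.4 and 125 in S kidneys, with a log2 difference of -0.17 (95% interval -1.76 to 1.42). Of 26 listed genes around the 10, Adamts16 included, 23 had a probe set and 13 passed the filter with their main one. Among the 13, 0 passed an adjusted p of 0.05 and 0 an unadjusted p of 0.05 in limma, where 0.0% and 10.3% of all probe sets tested did. For these 13 genes 10 differences were positive and 3 negative, with a median of 0.10. Over all probe sets tested 48.2% were positive. Sema5a, 1 of the 13, is not on chromosome 1 in the GRCr8 gene table. Slc6a18, a neutral amino acid transporter gene of the brush border, read 4375, 4496 and 4801 in congenic kidneys, against 4090, 3992 and 4184 in S kidneys (log2 difference 0.16, unadjusted p = 0.0613). Slc9a3, the sodium-proton exchanger gene of the proximal tubule, read 2697, 2449 and 2592 in congenic kidneys, against 2438, 2369 and 2222 in S kidneys (log2 difference 0.14, unadjusted p = 0.121). These 2, named after their values were seen, were the genes of the 13 whose strains did not overlap, a count near the 16% of all probe sets tested.

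**Figure D5:**
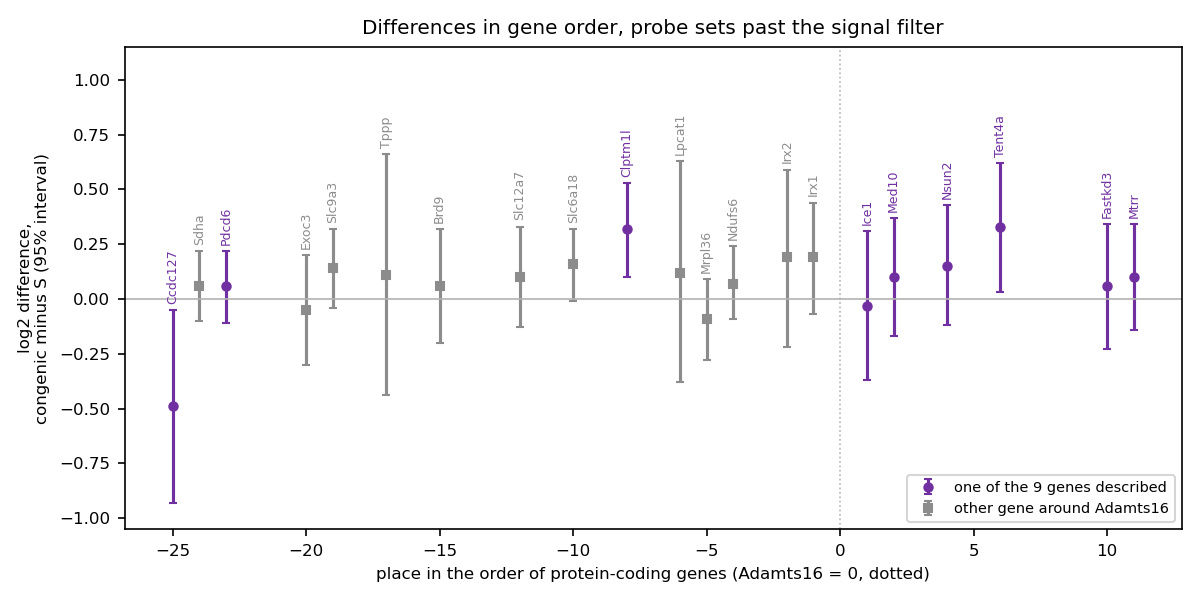
Log2 difference, congenic minus S, with 95% intervals by place in the order of protein-coding genes around Adamts16 (0, dotted), for the 9 genes (purple circles) and 12 others past the signal filter (grey squares). Positive values of up to 0.33 lie on both sides of Adamts16, and Ccdc127 at the far left has the lowest value, -0.49.

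Array quality overlapped between the strains. Median signals were 161.7 to 173.5 in congenic and 170.4 to 177.8 in S arrays, and the 3' to 5' ratio of beta-actin was 1.94 to 2.06 in congenic and 1.99 to 2.3 in S arrays. Markers of kidney epithelium were present, with 9 of 9 measured genes past the filter, and 0 of the markers of any list passed an adjusted p of 0.05. Summed signals of these kidney markers were 104311 to 115756 in congenic and 92518 to 107510 in S kidneys. Of the 9, 1 was higher and 1 lower at unadjusted p under 0.05 in limma. Over all probe sets tested, 4.72% were higher and 5.61% lower at that level. Erythrocyte markers summed to 12042 to 18510 in congenic and 17238 to 23763 in S kidneys. Of the 3 past the filter, 2 were lower at unadjusted p under 0.05. Immune cell markers summed to 5626 to 7194 in congenic and 5402 to 6054 in S kidneys. Of the 3 past the filter, 1 was higher at unadjusted p under 0.05. Endothelium markers summed to 5080 to 5099 in congenic and 4907 to 5830 in S kidneys, with 0 of 3 measured genes at that level. Adrenal markers summed to 408 to 526 in congenic and 437 to 509 in S kidneys, and adipocyte markers to 950 to 1496 in congenic and 1251 to 1363 in S kidneys. In each of these lists 1 of 4 measured genes passed the filter, and the defining genes Cyp11b1, Star, Adipoq and Plin1 lay under it. Their part in the values of Clptm1l, Tent4a and Ccdc127 was not tested, and in whole kidney fewer cells of a type and less RNA per cell cannot be told apart.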

How the data were processed

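Kidney RNA was hybridised to 6 one-colour Affymetrix arrays, 1 per rat. The authors deposited probe set intensities, linear in scale and brought to 1 trimmed mean per array, and the submitters' processing notes name GCOS 1.4. Its settings and detection calls are unknown here. Nothing was normalised further. Of 31099 probe sets, 57 controls were left out. Signals below the 10th percentile (12.3) were set to it before taking log2.

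Probe sets with 1 symbol (20826) were named from the platform annotation, updated through Entrez identifiers in the GRCr8 gene table. The fit used limma 3.58.1 under R 4.3.3 (lmFit, eBayes with a trend), and p-values were adjusted by Benjamini-Hochberg across the 15521 probe sets whose mean log2 signal passed the median. Probe sets under it were read from the same fit of all 31042. The median standard error was 0.14, a precision that the number of arrays limits. The procedure was tested on simulated data with independent noise and changes larger than those of Clptm1l, Tent4a and Ccdc127. That test therefore does not show how well differences of their size are found. Alternatives are given at the end.

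The genes named are the 10 genes, Adamts16, head-to-head partners, and up to 6 listed neighbours at unadjusted p under 0.05, of which there were 0. Sema5a, Slc6a18 and Slc9a3 fall outside this rule and were named after their values were seen. Genes and lists were chosen with earlier results of these data known. The labels say nothing of litters or cages, so p-values refer to these rats only. In limma the spread of each probe set is drawn towards that of probe sets of like signal (prior degrees of freedom 10.69). Figures were drawn with matplotlib 3.10.9.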

Additional observations from a re-analysis of the deposited data

How the results depend on the processing

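None of the 9 genes passed an adjusted p of 0.05 under any of the 16 alternatives. Of all 15521 probe sets tested, 9 passed with median centring and 41 without S replicate 1. Without congenic replicate 1 it was 6, and without congenic replicate 3 it was 3. In the other alternatives 0 passed. The alternatives changed the floor, the pseudocount, the filter, the normalisation, the variance model or the array weights. Others added a covariate for the number that opens each title (under or over 10), changed the choice of probe set, or left out 1 rat. The count of 3 genes at unadjusted p under 0.05 was 1 with the mean over the probe sets of a gene, where 9.79% of all tested reached that level. It ran from 1 to 3 with 1 rat left out, where 7.37% to 12.4% did. The count of 3 genes without overlap was 2 with quantile normalisation, cyclic loess or the mean over probe sets (15.3%, 15.3% and 15.8% of all tested). It was 4 with median centring (17.5%) and ran from 3 to 6 with 1 rat left out. There it was 6 without S replicate 1 and 5 without congenic replicate 2. Fewer values make separation easier in these fits (30.5% and 25.9% of all probe sets tested). The count of 0 listed neighbours at unadjusted p under 0.05 was 1 without the filter (Slc6a18), 2 with median centring (Slc9a3 and Slc6a18) and 0 to 1 with 1 rat left out. The count of positive differences ran from 6 to 8. Signs turned in 13 of the 279 results recomputed under an alternative, a total that includes counts, which have no sign. Ice1 had 0.04 with median centring, 0.01 with quantile normalisation and cyclic loess, and -0.12 to 0.01 with 1 rat left out. Tent4a had -0.0026 as a mean over its probe sets. The shift of the second Mtrr probe set was 0.03 with quantile normalisation, 0.04 with cyclic loess and -0.13 to 0.08 with 1 rat left out. Those of Tent4a 1395417_at and Ccdc127 1385496_at ran from -0.95 to 0.15 (the high end without S replicate 3) and from -1.30 to 0.10 (the high end without congenic replicate 3). The causes were not tested. No paired analysis was possible because the strains share no replicate numbers in the labels. Signals of 13.1 to 81 in the other Tent4a probe sets lie near the floor of 12.3 and limit what they can show.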
